A study of Homo sapiens with 2 samples.

Results

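Polycomb complexes and the enzymes that oppose them were examined as a set of 39 genes, taken from the 20163 protein-coding genes of the annotation. They comprise the subunits of Polycomb repressive complexes 1 and 2 (PRC1 and PRC2), the deubiquitinase complex PR-DUB and the H3K27 demethylases. A member was scored by the differential SMARCA4 regions within 1 kb of the transcription start site (TSS) of any of its annotated transcripts, and then by regions elsewhere in its gene body. These rules placed 50 of the 12896 differential regions at 23 of the 39 genes, and 16 genes had none.

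SMARCA4, also called BRG1, is a catalytic subunit of the SWI/SNF chromatin remodeling complex, and its binding was measured by ChIP-seq with an anti-FLAG antibody in 2 libraries of TOV21G, an *ARID1A*-mutated ovarian clear cell carcinoma cell line. One library came from parental cells and the other from an EZH2 inhibitor-resistant (EIR) clone, number 3 in the labels, picked after exposure to GSK126, an EZH2 inhibitor, that rose from 5 to 20 μM. In both, the endogenous *SMARCA4* locus carried a FLAG tag introduced by CRISPR, and whether GSK126 was present during the ChIP is not given in the sources used here. Each list holds regions called higher in that library against the other, 10792 in parental cells and 2104 in EIR cells, so loci bound equally in both were not analysed here. The libraries held 25.6 M and 35.0 M tags (aligned reads), and EIR tags are given below on the parental scale, on which 1 EIR tag counts as 0.733. With 1 library per condition and 1 clone there is no replicate spread. The intervals (95%, exact Clopper-Pearson) and exact binomial tests therefore compare these libraries, cover counting error only, and were computed on regions already selected for a difference.

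PRC2 places methyl groups on lysine 27 of histone H3 through EZH2 or its paralog EZH1. PRC1 ubiquitinates histone H2A, and the canonical form reads the PRC2 mark through a CBX protein, whereas variant PRC1 carries RYBP or YAF2 and can be brought to unmethylated CpG-rich DNA by KDM2B. PR-DUB removes the ubiquitin from H2A, and KDM6A and KDM6B remove methyl groups from H3K27. SWI/SNF and Polycomb complexes are known to oppose each other on chromatin.

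Loci on which the results turn are shown first by their sequence. Each is 150 bases of GRCh37 (hg19) without any annotated exon, lies within a differential region, and is printed 5′ to 3′ on the strand of the gene. Capitals mark matches on either strand to the SP1 motif GGGCGG or the NFY motif CCAAT, the only ones of the 8 searched motifs that occurred in these stretches. A match describes the letters and does not show a bound factor. The stretch just before the most upstream *EZH2* start (chr7:148581414-148581563, minus strand) is shown because EZH2 is the target of GSK126, and that before the upstream start of *PCGF5* (chr10:92922619-92922768, plus strand) because this promoter had the lowest p-value of the nearest promoter regions:
EZH2 promoter: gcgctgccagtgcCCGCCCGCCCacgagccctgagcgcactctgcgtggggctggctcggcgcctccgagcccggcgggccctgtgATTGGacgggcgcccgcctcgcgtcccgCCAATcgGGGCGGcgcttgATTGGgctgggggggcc
PCGF5 upstream promoter: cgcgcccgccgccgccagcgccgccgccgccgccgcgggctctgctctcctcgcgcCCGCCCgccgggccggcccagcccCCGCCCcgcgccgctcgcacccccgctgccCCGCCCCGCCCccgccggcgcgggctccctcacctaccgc
The centres of the opposed regions of *CBX8*, higher in parental cells (chr17:77775005-77775154, minus strand) and higher in EIR cells (chr17:77773789-77773938, minus strand), follow:
CBX8 parental-higher: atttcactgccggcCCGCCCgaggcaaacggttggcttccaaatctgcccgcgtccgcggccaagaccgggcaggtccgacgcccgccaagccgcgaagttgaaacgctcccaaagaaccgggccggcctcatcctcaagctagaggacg
CBX8 EIR-higher: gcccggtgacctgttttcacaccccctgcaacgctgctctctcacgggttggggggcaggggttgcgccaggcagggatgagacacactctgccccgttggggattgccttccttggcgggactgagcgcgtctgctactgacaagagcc
The last pair are centres of strongly tagged regions 2780 and 9899 bp from the nearest annotated start of their own gene. They lie in intron 12 of *KDM2B* (chr12:121904603-121904752, minus strand) and in the 5′ part of the long *BCOR* gene (chrX:39968920-39969069, minus strand):
KDM2B intron: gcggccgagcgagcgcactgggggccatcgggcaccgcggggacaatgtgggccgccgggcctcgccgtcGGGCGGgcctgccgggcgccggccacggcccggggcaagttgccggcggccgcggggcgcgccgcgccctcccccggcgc
BCOR gene body: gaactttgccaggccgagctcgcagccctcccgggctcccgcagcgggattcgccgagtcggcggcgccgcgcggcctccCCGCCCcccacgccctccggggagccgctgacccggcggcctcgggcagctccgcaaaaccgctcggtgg
The *EZH2* stretch held 3 matches to each of SP1 and NFY, and 78.7% of its bases were G or C. The *PCGF5* stretch held 4 SP1 matches in 90.0% GC, the *KDM2B* stretch 1 in 86.0% GC, and the *BCOR* stretch 1 in 78.7% GC. The *CBX8* stretches were close in GC content, 66.0% in the parental-higher one with 1 SP1 match and 64.7% in the EIR-higher one with none. They differed in CpG sites, with 18 and 8. Over the central 500 bp of these regions GC content was 71.2% and 58.4%, with 4 and 0 SP1 matches.

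SMARCA4 was higher in parental cells at the promoters of many Polycomb genes. Of the 39 genes, 22 (56.4%) had a parental-higher region within 1 kb of a TSS, beside 23.2% of all protein-coding genes. A region higher in EIR cells lay within 1 kb of a TSS of 1 member, *BMI1*, beside 1.96% of protein-coding genes. Regions of either list elsewhere in the gene body were present at 9 members (23.1%), beside 11.6%, and at 1 of these, *KDM6B*, they were the only regions. No test of these shares was made, because the members are one list chosen as a whole.

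Members also differ from other genes in properties that bear on the join. They had a median of 11.0 distinct TSSs per gene against 5.00, and spanned a median of 64.0 kb against 27.2 kb. Among protein-coding genes with at least 11 TSSs, 34.0% had a parental-higher promoter region, and 12 of the 20 members in this class did. Among those with fewer TSSs the share was 20.1%, and 10 of 19 members did. Chromosome 10 carried a parental-higher promoter region at 35.7% of its genes against 22.7% elsewhere, and all 4 members on it (*BMI1*, *PCGF5*, *PCGF6* and *LCOR*) had one. On the other chromosomes 18 of 35 members did. The part of these properties in the difference from all genes was not tested.

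**Figure D1:**
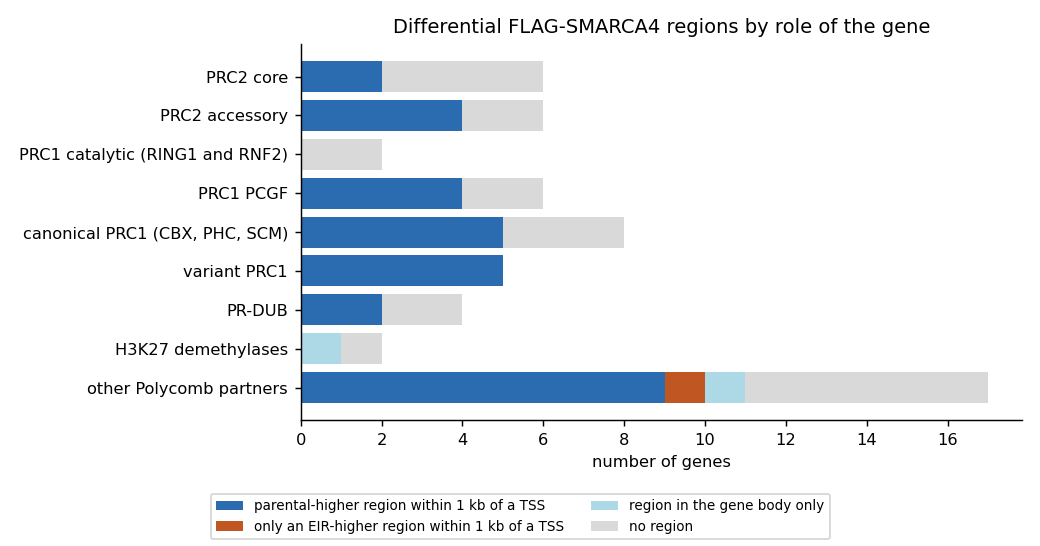
Number of genes (x axis) in each role (y axis), divided by whether a parental-higher FLAG-SMARCA4 region lay within 1 kb of a TSS, only an EIR-higher region did, regions lay in the gene body only, or no region was found. Each of the 5 genes in the variant PRC1 bar, which leaves out the PCGF genes shown in their own bar, had a parental-higher promoter region, and neither gene of the PRC1 catalytic pair had one. The lowest bar is an additional list of 17 partner genes that are not members.

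At the nearest promoter region of the 22 genes, parental tags ranged from 27 to 165 with a median of 75.0, and EIR tags from 8.06 to 71.1 on the parental scale. The parental level was the higher at each of them, as the lists require. The fold of parental over EIR tags had a median of 2.42 and ranged from 1.89 at *PCGF2* to 4.01 at *YAF2*. Over the 4671 protein-coding genes with a parental-higher promoter region the median fold was 2.52, close to that of the members. The members' regions were more strongly tagged, with 75.0 parental tags against 50.0, and wider, with a median of 975 bp against 764 bp. The intervals of 20 of the 22 folds contained the members' median, and the order of neighbouring genes is therefore not resolved by counting. All 22 passed the exact binomial test adjusted over all regions, with adjusted p-values from 2.93e-13 to 0.00662. This share carries no weight, since 100% of the regions of the parental-higher list and 100% of those of the EIR-higher list passed it.

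**Figure D2:**
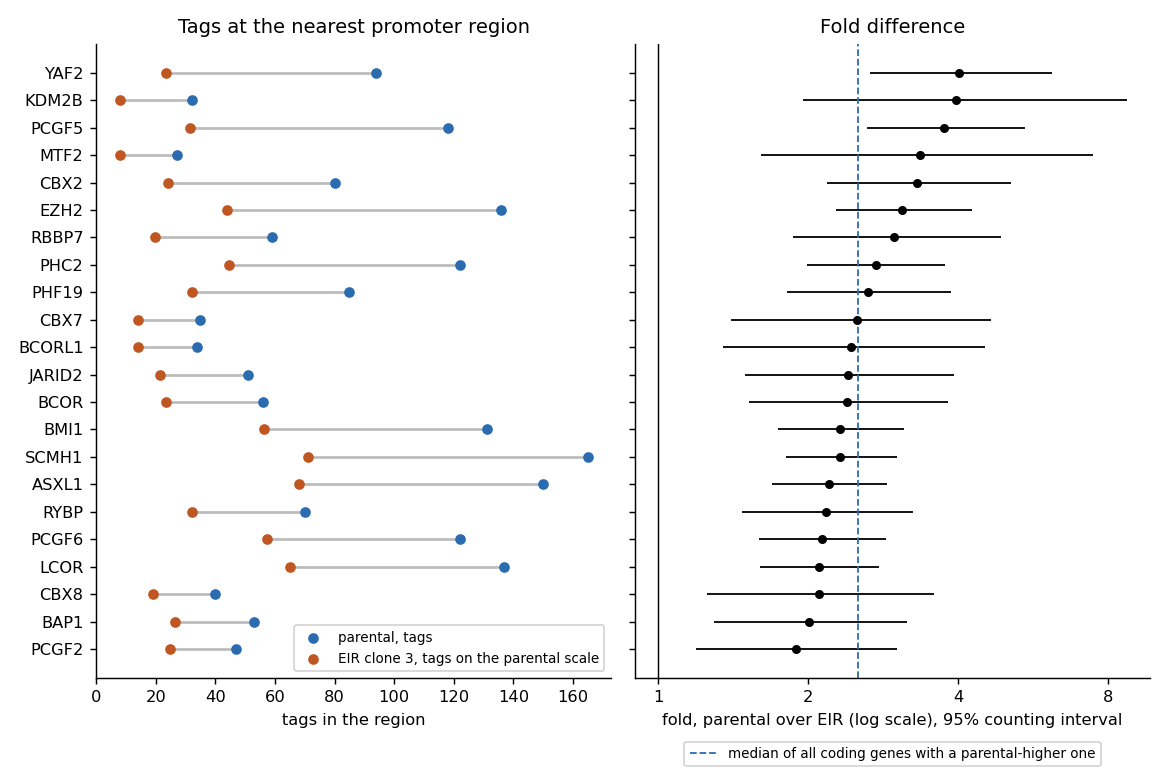
Left, tags in the nearest promoter region of each of the 22 genes in the parental library and, on the parental scale, in the EIR library (x axis, tags in the region). Right, fold of parental over EIR tags on a log axis with 95% counting intervals, from 1.89 at *PCGF2* to 4.01 at *YAF2*, beside the median of 2.52 of all protein-coding genes with a parental-higher promoter region (dashed).

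Among the 6 PRC2 core genes, *EZH2* and *RBBP7* had a parental-higher promoter region and *EZH1*, *EED*, *SUZ12* and *RBBP4* had no region. The region at *EZH2*, the catalytic subunit, covered its canonical TSS and reached from upstream into intron 1 (chr7:148580222-148581758). It held 136 parental tags and 44.0 EIR tags, a fold of 3.09 (2.27 to 4.26). The sequence shown above lies within it, directly before the most upstream start. A weaker region in intron 8, at the start of a shorter *EZH2* transcript, held 18 and 5.86 tags, a fold of 3.07 (1.27 to 8.16). At *RBBP7*, a histone-binding subunit, 59 parental and 19.8 EIR tags gave 2.98 (1.86 to 4.89). Its paralog *RBBP4* was among the core genes without a region.

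Of the 6 PRC2 accessory genes, *JARID2*, *MTF2*, *PHF19* and *LCOR* had a parental-higher promoter region, and *AEBP2* and *PHF1* had none. *JARID2* encodes a DNA-binding cofactor of PRC2, and carried such regions on both sides of its canonical start. In intron 1, over an internal start, 51 parental and 21.3 EIR tags were counted, and upstream 74 and 21.3, with folds of 2.40 (1.49 to 3.93) and 3.48 (2.24 to 5.55). These did not differ by Fisher's exact test (unadjusted p = 0.265).

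The Polycomb-like proteins MTF2 and PHF19 bind CpG-rich DNA and differed in tags. *MTF2* had the lowest parental count of the 22 genes, 27 against 8.06 EIR tags (3.35, 1.61 to 7.48), with a second region in intron 1 at 21 and 5.86 tags and another, further into that intron and away from any start, at 18 and 5.86 tags. *PHF19* held 85 and 32.3 tags over its canonical start (2.64, 1.81 to 3.88). Upstream of that start but inside the gene, a region of 17 and 2.93 tags had the highest fold of the gene-body regions, 5.80, with an interval from 1.89 to 23.68. The *LCOR* locus, which also encodes the PRC2 cofactor PALI1, held 137 parental and 65.2 EIR tags at its promoter (2.10, 1.60 to 2.77). Within its introns were parental-higher regions of 44 and 17.6 tags and of 17 and 3.67 tags, and an EIR-higher region of 5 parental and 16.1 EIR tags (0.31, 0.09 to 0.84). *LCOR* carried differences of both directions, 7220 bp apart at the closest. Its intronic calls rest on the library scale. The EIR-higher region did not pass the exact binomial test with EIR tags scaled down 1.5 times (adjusted p = 0.152). The intronic parental-higher regions did not pass the exact binomial test with EIR tags scaled up 1.5 times (adjusted p = 0.101 and 0.0730). The *LCOR* promoter region passed the exact binomial test under that higher scaling (adjusted p = 0.0412).

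Neither *RING1* nor *RNF2*, the ubiquitin ligases of PRC1, had a region by the rule. The nearest region to an *RNF2* start lay 1.82 kb upstream, just outside the window, with 18 parental tags and 2 EIR tags (1.47 on the parental scale), a fold of 12.28 with an interval from 2.94 to 109.11. At the other side of the limit were the regions of *ASXL1* at 866 bp and one of the *BCOR* regions at 990 bp.

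PCGF proteins pair with RING1 or RNF2 and set the type of PRC1. Parental-higher promoter regions were found at *PCGF2*, *BMI1* (PCGF4), *PCGF5* and *PCGF6*, and no region at *PCGF1* or *PCGF3*. *PCGF2* had the smallest fold of the 22 genes, 47 parental against 24.9 EIR tags (1.89, 1.19 to 3.02), and *PCGF6* held 122 and 57.2 tags (2.13, 1.59 to 2.87).

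At *PCGF5*, a subunit of variant PRC1, the upstream and the canonical promoter lie over 50 kb apart and both were called. At the upstream start, with the sequence shown above, 118 parental and 31.5 EIR tags gave a fold of 3.74 (2.62 to 5.44). At the canonical start 87 and 52.8 tags gave 1.65 (1.19 to 2.28), and these intervals do not overlap. The call at the canonical start rests on the library scale: with EIR tags scaled up 1.5 times its fold was 1.10 and the exact binomial test did not pass (adjusted p = 0.580). Fisher's exact test of the tags, which does not depend on the library scale, gave an unadjusted p of 7.01e-04, the only one under 0.05 among the 9 such pairs at 8 members. Adjusted over the 516 pairs of promoter regions of all protein-coding genes it was 0.12 and did not pass. Over all these pairs 19 had an unadjusted p under 0.05, and 0 (0%) passed the adjusted threshold, by Fisher's exact test with Benjamini-Hochberg adjustment.

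*BMI1* was the member with regions of both directions at its promoters. Over its canonical start 131 parental and 56.4 EIR tags were counted (2.32, 1.74 to 3.12). Further into intron 1, at the starts of shorter transcripts, a parental-higher region held 50 and 26.4 tags (1.89, 1.21 to 2.99). The next region, which shares 76 bp with it, was higher in EIR cells, with 7 parental and 22.0 EIR tags, a fold of 0.32 (0.12 to 0.74). Each of these opposed calls rests on the library scale. With EIR tags scaled up 1.5 times the parental-higher region had a fold of 1.26 (exact binomial test, adjusted p = 0.340), and with them scaled down as much the EIR-higher one had 0.48 (adjusted p = 0.0863). GC content went from 78.6% in the parental-higher region to 49.2% in the EIR-higher one, and SP1 matches from 11 to 0. Chromosome 10, on which *BMI1* lies, held 21.1% of all EIR-higher regions and 11.1% of the parental-higher ones.

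**Figure D3:**
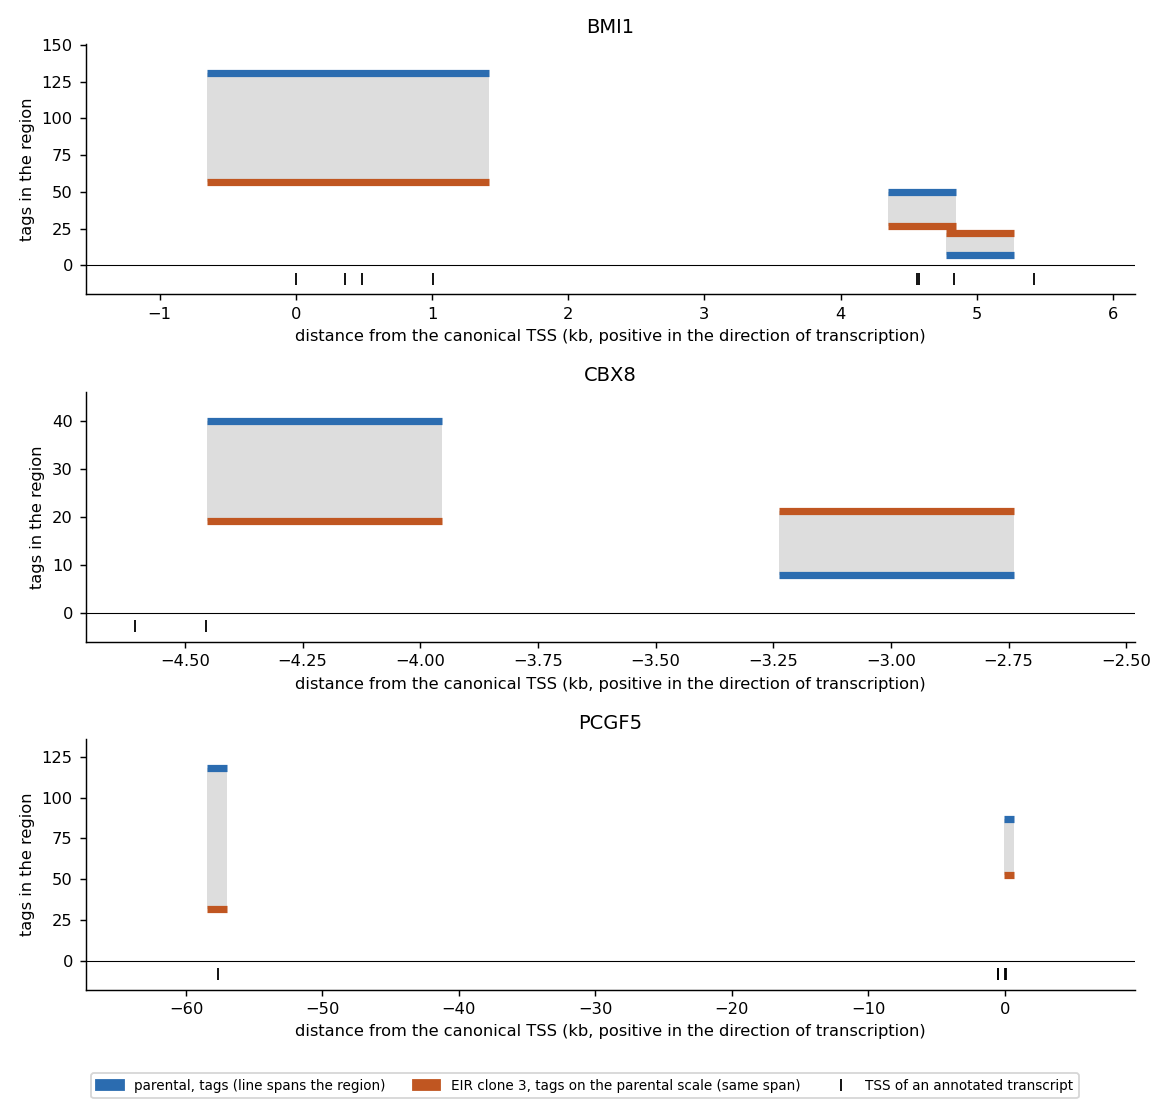
Tags in each differential region of *BMI1*, *CBX8* and *PCGF5* (y axis) against distance from the canonical TSS in kb (x axis), with lines spanning the region for the parental library and, on the parental scale, the EIR library, and ticks at annotated starts. In *BMI1* and *CBX8* the EIR line is the upper one in 1 region each (22.0 against 7 and 21.3 against 8 tags), and in *PCGF5* the gap is wider at the upstream start.

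Canonical PRC1 contains CBX, PHC and SCM-type subunits. Parental-higher promoter regions were present at *CBX2*, *CBX7*, *CBX8*, *PHC2* and *SCMH1*, and no region at *CBX6*, *PHC1* or *PHC3*. Of the CBX proteins, which bind methylated H3K27, *CBX2* held 80 parental and 24.2 EIR tags (3.31, 2.18 to 5.12) and *CBX7* 35 and 13.9 (2.51, 1.40 to 4.65), both over the canonical start.

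The *CBX8* region lay at the start of a longer transcript, upstream of the canonical start, with 40 parental and 19.1 EIR tags (2.10, 1.25 to 3.58). After a gap of 716 bp came an EIR-higher region with 8 parental and 21.3 EIR tags (0.38, 0.15 to 0.84). These are the opposed *CBX8* sequences shown above, and both regions also lie within 1 kb of a start of an annotated lncRNA. With EIR tags scaled up 1.5 times the first did not pass the exact binomial test (adjusted p = 0.233), and with them scaled down the second did not (adjusted p = 0.166). When tags were summed over all regions within 5 kb of a *CBX8* start, the fold was 1.19 and the exact binomial test no longer passed (adjusted p = 0.429).

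*PHC2*, a polyhomeotic subunit, had its strongest region at an internal start, 122 and 44.7 tags (2.73, 1.99 to 3.77), and a smaller one at its canonical start, 42 and 13.9 tags (3.02, 1.72 to 5.49). A pair of weaker regions in intron 9 held 27 and 11.0 tags and 23 and 7.33 tags. *SCMH1*, a relative of the fly Sex comb on midleg protein, had the highest parental count of the nearest promoter regions, 165 against 71.1 EIR tags (2.32, 1.80 to 3.01). A region in its intron 4 held 18 and 4.40 tags.

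The 5 genes listed here as variant PRC1 subunits apart from the PCGF proteins each had a parental-higher promoter region. With *PCGF1*, *PCGF3*, *PCGF5* and *PCGF6*, which also belong to variant PRC1, the count was 7 of 9. The share was 56.4% over all members and 23.2% over all protein-coding genes, and this subgroup was not tested. *YAF2* and *RYBP* encode alternative subunits that bind RING1 and RNF2. *YAF2* had the highest fold of the 22, 94 parental against 23.5 EIR tags (4.01, 2.66 to 6.19). Its region is shared with the start of *PPHLN1*, and the target of the difference cannot be told from the region. Annotated lncRNA starts likewise lay within 1 kb of regions at *JARID2*, *PCGF2*, *PHC2*, *SCMH1*, *KDM2B* and *ASXL1*. An annotated snRNA start lay within 1 kb of the intron 8 region of *EZH2*. *RYBP* held 70 and 32.3 tags upstream of its start (2.17, 1.47 to 3.24).

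*KDM2B*, the CpG-binding subunit, held fewer parental tags in its differential regions near starts than in one inside the gene. Near an internal start in intron 6, 32 parental and 8.06 EIR tags were counted (3.97, 1.95 to 8.73), and upstream of the canonical start 22 and 8.06 (2.73, 1.27 to 6.23). These regions lay 211 and 334 bp from a *KDM2B* start and were 902 and 500 bp long, against 1796 bp inside the gene. Parental tags per kb were 35.5 and 44.0 against 89.6. The region of intron 12 with the sequence shown above lay 2780 bp from the nearest start and held 161 and 46.2 tags (3.49, 2.59 to 4.74; chr12:121903780-121905576). Its central 500 bp were 81.8% GC with an observed-to-expected CpG ratio of 1.03, values in the range of the promoter regions.

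*BCOR*, a corepressor that assembles with PCGF1, carried 10 parental-higher regions, a number reached by 52 (0.258%) of the protein-coding genes. The gene spans 128 kb with 14 distinct TSSs, against medians of 27.2 kb and 5.00 over protein-coding genes. That share was not adjusted for span or TSSs. Together the 10 regions covered 8.75 kb and held 705 parental and 309 EIR tags, a difference whose direction was fixed by the calling of each region. At its canonical start 56 and 23.5 tags were counted (2.39, 1.52 to 3.81), and near its most upstream starts 54 and 23.5. The strongest regions lay between these, in the long 5′ part of the gene, with 168 and 70.4 tags (2.39, 1.85 to 3.10) and 151 and 63.0 tags (2.40, 1.83 to 3.16). The folds over the 10 regions ran from 1.92 to 3.55, and none of the regions at *BCOR* was higher in EIR cells. Its paralog *BCORL1* had 1 region, with 34 and 13.9 tags (2.44, 1.35 to 4.53).

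**Figure D4:**
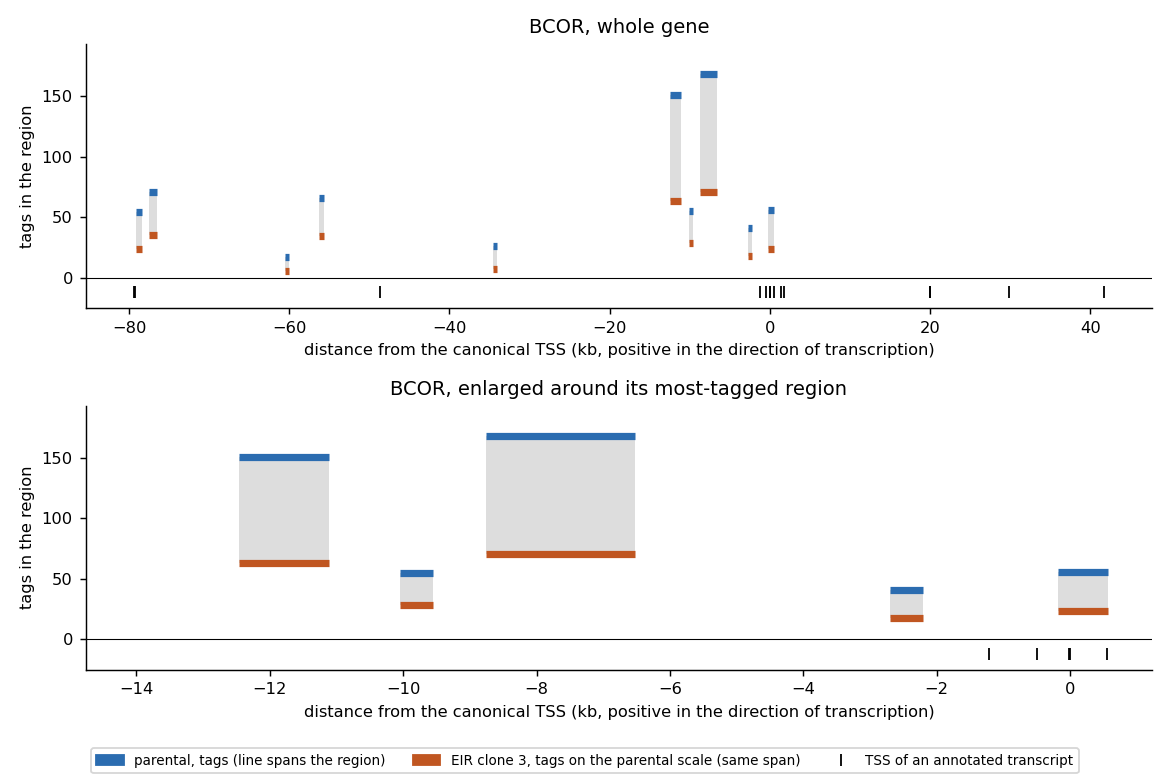
Tags in the 10 differential regions of *BCOR* (y axis) against distance from its canonical TSS in kb (x axis), for the whole gene and enlarged around the most-tagged region, with lines spanning each region for the parental library and, on the parental scale, the EIR library, and ticks at annotated starts. The parental line is the upper one in all 10, and the highest pairs, 168 and 70.4 and 151 and 63.0 tags, lie away from any annotated start.

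In PR-DUB, *BAP1* and *ASXL1* had a parental-higher promoter region and *ASXL2* and *ASXL3* had no region. At *BAP1*, the catalytic subunit, 53 and 26.4 tags were counted upstream of the start (2.01, 1.29 to 3.16), in a region also within 1 kb of a start of *PHF7*. The region at *ASXL1*, an activating cofactor of BAP1, was the longest of the whole parental-higher list at 3686 bp and ended 866 bp before the first start (chr20:30941581-30945267). It held 150 and 68.2 tags (2.20, 1.69 to 2.88), and its central 500 bp had the lowest GC content of the 22, 37.8%.

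Neither H3K27 demethylase had a region within 1 kb of a start. *KDM6B* had a region in intron 1, 1.85 kb from its nearest start, with 59 parental and 24.9 EIR tags (2.37, 1.53 to 3.72). That region also lies within 1 kb of starts of annotated lncRNAs. *KDM6A* had no region. The 16 members without a region are *EZH1*, *EED*, *SUZ12*, *RBBP4*, *AEBP2*, *PHF1*, *RING1*, *RNF2*, *PCGF1*, *PCGF3*, *CBX6*, *PHC1*, *PHC3*, *ASXL2*, *ASXL3* and *KDM6A*. For 4 of them a region lay within 20 kb of a start and for 6 the nearest was over 50 kb away. The lists do not record whether SMARCA4 was bound at these genes in both libraries.

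The regions at Polycomb genes were compared by base composition in the central 500 bp. The nearest promoter regions had a median GC content of 76.2% and a CpG ratio of 0.93, beside 74.4% and 0.88 for the 4203 parental-higher regions nearest to starts of protein-coding genes. An SP1 match was present in 17 of 22 (77.3%) against 83.4%, an NFY match in 4 (18.2%) against 24.1%, and an ETS match (CCGGAAG) in 3 (13.6%) against 10.5%. An AP-1 match (TGANTCA) was present in 0 against 5.57%, an NRF1 match (GCGCATGC) in 0 against 1.86%, and CRE (TGACGTCA), E2F (GGCGGGAA, which can overlap SP1) and TEAD (GGAATG) matches in 1 each against 1.24%, 7.09% and 12.3%. These shares rest on 22 regions, and none was tested. They miss the outer parts of long regions: the *EZH2* stretch shown above lies outside the central 500 bp, in which *EZH2* had no NFY match.

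Among the 16 parental-higher regions in gene bodies of members, the 7 in *BCOR* set the composition. Over all 16 the median GC content was 51.4% with a CpG ratio of 0.62, against 43.8% and 0.20 for the 5596 parental-higher regions over 1 kb from every TSS, and an SP1 match was present in 9 (56.2%) against 11.4%. Over the 9 regions outside *BCOR*, the values were 45.6% GC, a CpG ratio of 0.21 and an SP1 match in 3 (33.3%). No test of these values was made. The reference regions are an unlike set, since they avoid starts of every gene and include regions between genes. Member regions avoid only the starts of their own gene, and those at *KDM6B* and 1 in *LCOR* lie within 1 kb of starts of other genes. The 3 EIR-higher regions, at *BMI1*, *CBX8* and *LCOR*, had 48.4 to 58.4% GC, beside a median of 51.6% over all EIR-higher regions. None held an SP1 match and 2 held a TEAD match, beside 21.4% and 28.1% of all EIR-higher regions.

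**Figure D5:**
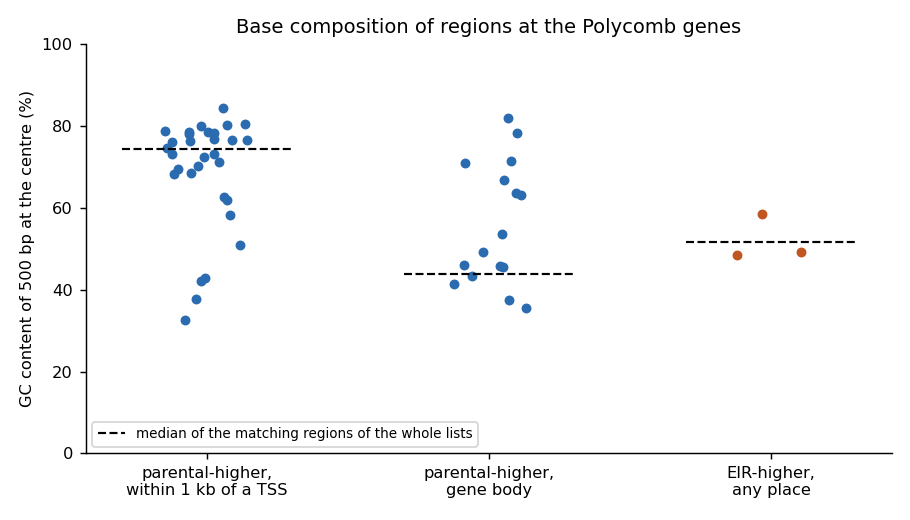
GC content in percent of the central 500 bp (y axis) of each region at the Polycomb genes, grouped by list and place (x axis). Dashed lines mark the median of reference regions of the whole lists, which for gene bodies are all parental-higher regions over 1 kb from every TSS. Most promoter regions lie near the line of 74.4% with a few down to 32.6%, gene-body regions spread from 35.6 to 81.8% around a line of 43.8%, and the 3 EIR-higher regions lie between 48.4 and 58.4%.

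In a list of 17 further Polycomb partners, 9 had a parental-higher promoter region, 1 an EIR-higher one (*AUTS2*), 1 a gene-body region only, and 6 no region. Counted with or without a promoter region, 4 of the 17 (23.5%) had a gene-body region. The shares of all protein-coding genes were 23.2% and 1.96% for promoter regions of these lists. For gene-body regions, counted likewise with or without a promoter region, the share was 11.6%. The partners were listed from general knowledge of the complexes, with earlier results of these data known, and were not tested as a group. The most strongly tagged promoters were those of *USP7*, a deubiquitinase, with 145 and 46.9 tags (3.09, 2.29 to 4.22), of the forkhead factor *FOXK1* with 112 and 27.1 (4.13, 2.82 to 6.16), of *SFMBT1* with 97 and 30.1 (3.23, 2.22 to 4.77) and of *FOXK2* with 60 and 18.3 (3.27, 2.02 to 5.45).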

How the data were processed

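FLAG-SMARCA4 ChIP-seq of 2 TOV21G libraries was used. Per the labels and methods, the authors aligned reads to hg19 with Bowtie 0.12.9 and called regions with HOMER in histone style, each library against the other, at an FDR of 5%. The deposited count columns give tags of the parental library per region. The other library is deposited as a signal that the authors scaled to the parental total. The lists do not name the control library, which was taken from the methods to be the other condition, so every EIR value in the parental-higher list, and every parental value in the EIR-higher list, rests on this. The authors' fold, p-value and score columns were not used.

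The EIR counts were recovered as whole multiples of 0.733, which held for 99.4% of 173 distinct scaled values of at least 5, within 0.0501. Regions were joined to TSSs of GENCODE release 44 on GRCh37 by nearest edge. Of several regions within 1 kb, the nearest, and among equally near ones the one with the most tags, was given in full. Tags were compared by two-sided exact binomial tests with Benjamini-Hochberg adjustment over all 12896 regions. Promoter regions of 1 gene were compared by Fisher's exact test, added after the values were seen. Motifs were searched on both strands in 500 bp at each centre. Statistics were tested on simulated data. Alternatives were other windows, starts, folds and scalings. The members, lists and tests were chosen with earlier results of these data known. Figures were drawn with matplotlib 3.10.9, and tests run with scipy 1.17.1, numpy 2.4.6 and pandas 2.3.3 under Python 3.11.15.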

Additional observations from a re-analysis of the deposited data

How the results depend on the processing

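The count of 22 members with a parental-higher promoter region was 20 to 24 at 500 bp or 5 kb, with the region's centre in place of its edge, the 5′ end of the gene only, starts of protein-coding transcripts, a fold of at least 2, the exact binomial test, or the EIR library scaled 1.5 times lower. The share of coding genes, 23.2% in the main setting, moved with these settings too. It was lowest with the 5′ end only, 18.7% beside 21 members, and highest at 5 kb, 27% beside 24 members. The count of members was 1 with a fold of at least 4 (2.01% of coding genes) and 14 with the EIR library scaled 1.5 times higher (8.14%). Without chromosome 10, a setting chosen after seeing the data, it was 18 of 35 (22.7%). The 1 member with an EIR-higher promoter region became 2 at 5 kb (3.50% of coding genes). The count was 0 with the 5′ end only (0.967%), a fold of at least 4 (0.575%), scaling 1.5 times lower (0.476%), or without chromosome 10 (1.86%). The 9 members with gene-body regions became 20 with spans widened by 20 kb (30.2% of coding genes) and 3 with a fold of at least 4 (3.57%).

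The median fold of 2.42 was 1.61 with the EIR library scaled 1.5 times higher and 3.63 with it scaled lower, and 2.38 and 2.44 with a pseudocount of 1 tag and with sums over 5 kb. Under the higher scaling 13 of 22 nearest promoter regions passed the exact binomial test, and *JARID2*, *MTF2*, *PCGF2*, *CBX7*, *CBX8*, *RYBP*, *BCOR*, *BCORL1* and *BAP1* did not. With sums over 5 kb 21 passed, all but *CBX8*. Of the 9 parental-higher promoter regions of members other than the nearest, 2 passed under the higher scaling, at *JARID2* and *PHC2*, and 9 under the lower. Of the 18 gene-body regions 6 passed under the higher and 16 under the lower scaling. No share of all regions passing under these scalings is given beside these counts, which therefore describe the members alone. These settings for the other promoter and gene-body regions were added after seeing the data. No fold of a nearest promoter region changed direction.

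No paired analysis was possible because each condition had 1 library, and leaving out a replicate was not run for the same reason. Library totals set the scale, and a difference in immunoprecipitation between the libraries cannot be told apart from one in binding. Regions with few tags carry wide intervals, and an alternative can remove regions but not add ones that were not called.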
